A study of Mus musculus with 10 samples.

Results

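Carboxylesterases are serine hydrolases of the endoplasmic reticulum that split ester bonds in drugs, toxins and lipids. The data were searched for 9 listed genes of the mouse family, namely Ces1c, Ces1d, Ces1e, Ces1f, Ces1g, Ces2a, Ces2c, Ces2e and Ces3a, by taking every probe set whose platform annotation named only 1 of them. This found 9 probe sets, of 45101 on the array, for 7 of the 9 genes and 7 of the 18194 genes named on the array in all. Ces1d was read by 3 probe sets and the other measured genes by 1 each. Ces2c had no entry in the annotation, and the probe set of Ces3a also named Ces3b, so neither has values here.

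The groups were liver, jejunum, ileum, distal colon and spleen of male ICR mice, an outbred stock with no engineered allele or treatment named in the labels, at 28 months and at 4 months of age. All mice ate the AIN-93 diet, were kept singly and were free of specific pathogens, and the older mice came to the laboratory at 8 months and the younger ones at 2 months. Each array read 1 pool, made of equal RNA amounts from 9 older or 6 younger animals. The 10 groups held 1 Affymetrix expression array each, the tissues of 1 age shared mice, and the spread between mice was not measured. The titles of the 3 gut arrays of 28 months are worded unlike those of the remaining 7. A separate preparation of these arrays was not tested, and in every gut segment it could not be told apart from age.

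In mice, as in humans, the Ces1 group is best known from liver and the Ces2 group from intestine, where these enzymes meet absorbed drugs and dietary lipid esters. Ces1 enzymes favour esters with a large acid part and a small alcohol part, and Ces2 enzymes the reverse. Several mouse members also act on stored triglyceride and so bear on how much fat leaves the liver or the gut wall as lipoprotein. RefSeq places all 9 genes on chromosome 8, with the listed Ces1 genes in 1 stretch and the Ces2 and Ces3 genes in another.

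Promoter sequence was available from RefSeq (GRCm38.p6) for 6 of the 9 genes. The 250 bases before the start are printed for the 4 measured genes that span the expression patterns below: Ces1c, near liver-restricted, Ces1g, which differed most with age, Ces2a, whose liver and gut levels overlapped, and Ces2e, highest in jejunum and ileum. Capitals mark matches, on either strand, to short letter strings of motifs known from promoters of liver or gut. The letters were TATAAA for the TATA box. For HNF1, a factor of both organs, part of its site was used, GTTAAT. For HNF4, which acts in hepatocytes and enterocytes, they were CAAAGT. For CDX, the intestinal homeobox factors, they were TTTATNG.
Ces1c: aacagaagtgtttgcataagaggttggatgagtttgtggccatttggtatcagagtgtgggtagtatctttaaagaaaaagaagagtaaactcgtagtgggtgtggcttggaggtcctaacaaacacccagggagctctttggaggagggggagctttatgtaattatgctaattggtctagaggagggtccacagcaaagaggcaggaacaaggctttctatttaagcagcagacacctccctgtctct
Ces1g: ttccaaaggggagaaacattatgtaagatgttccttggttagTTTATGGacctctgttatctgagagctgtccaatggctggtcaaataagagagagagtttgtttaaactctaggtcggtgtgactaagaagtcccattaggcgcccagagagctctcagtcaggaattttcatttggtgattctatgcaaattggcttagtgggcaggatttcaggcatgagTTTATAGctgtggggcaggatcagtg
Ces2a: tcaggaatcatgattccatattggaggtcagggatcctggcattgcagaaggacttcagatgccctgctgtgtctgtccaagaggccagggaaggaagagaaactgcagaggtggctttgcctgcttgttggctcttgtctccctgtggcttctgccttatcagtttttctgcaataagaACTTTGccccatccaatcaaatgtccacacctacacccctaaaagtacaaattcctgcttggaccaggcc
Ces2e: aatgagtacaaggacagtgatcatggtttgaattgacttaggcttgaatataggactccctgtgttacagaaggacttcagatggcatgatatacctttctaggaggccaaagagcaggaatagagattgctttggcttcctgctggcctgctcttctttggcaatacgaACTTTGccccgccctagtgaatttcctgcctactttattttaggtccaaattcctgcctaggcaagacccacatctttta
These windows lie at chr8:93131284-93131533 (minus strand) for Ces1c, chr8:93337210-93337459 (minus strand) for Ces1g, chr8:104733753-104734002 (plus strand) for Ces2a and chr8:104926010-104926259 (plus strand) for Ces2e.

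Ces2a and Ces2e each held 1 CAAAGT match, read on the opposite strand, starting 70 bases before the start in Ces2a and 80 bases before it in Ces2e. Ces1g held TTTATNG starting 208 and 26 bases before the start, and the nearer match overlapped a TATAAA match on the opposite strand. None of the 4 motifs matched in the windows of Ces1c, Ces1e or Ces2c. Of 32851 mouse promoter windows of the same length, 12.4% held the TATA box letters, 6.43% the HNF1 letters, 12.6% the HNF4 letters and 9.81% the CDX letters. A match is a description of the letters only.

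Signals are in arbitrary units after each array was scaled to the same trimmed mean of 500 units. Signals under a floor of 110.7 units, the median of all signals, were raised to it before a ratio of 28 over 4 months was taken. A level is compared only for the same probe set between arrays, never between genes. Markers of the labelled tissues were high on their own arrays. Alb, serum albumin, reached 50608 units in the older and 51037 units in the younger liver and stayed within 175 units elsewhere. Fabp6, an ileal bile acid carrier, reached 35831 units in the older and 20178 units in the younger ileum and stayed within 429 units elsewhere. The ileum array of 4 months also carried genes of the upper small intestine, with Lct, lactase, at 92 units at 28 months and 14054 units at 4 months. The spleen array of 4 months carried pancreatic acinar genes, with Cela2a, an elastase, at 57 units at 28 months and 8306 units at 4 months, and 12 of 12 acinar markers were 2-fold lower at 28 months there. Both jejunum arrays carried them as well, with Cela2a at 9811 units at 28 months and 10404 units at 4 months. The summed acinar signals there were 96588 and 92538 units. In distal colon the sums were 49556 and 41810 units, with Sycn at 32982 and 27058 units but Cela2a at 61 and 43 units. The sum alone thus does not mark pancreatic tissue. In pooled tissue, fewer cells of a type and less RNA per cell cannot be told apart.

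**Figure D1:**
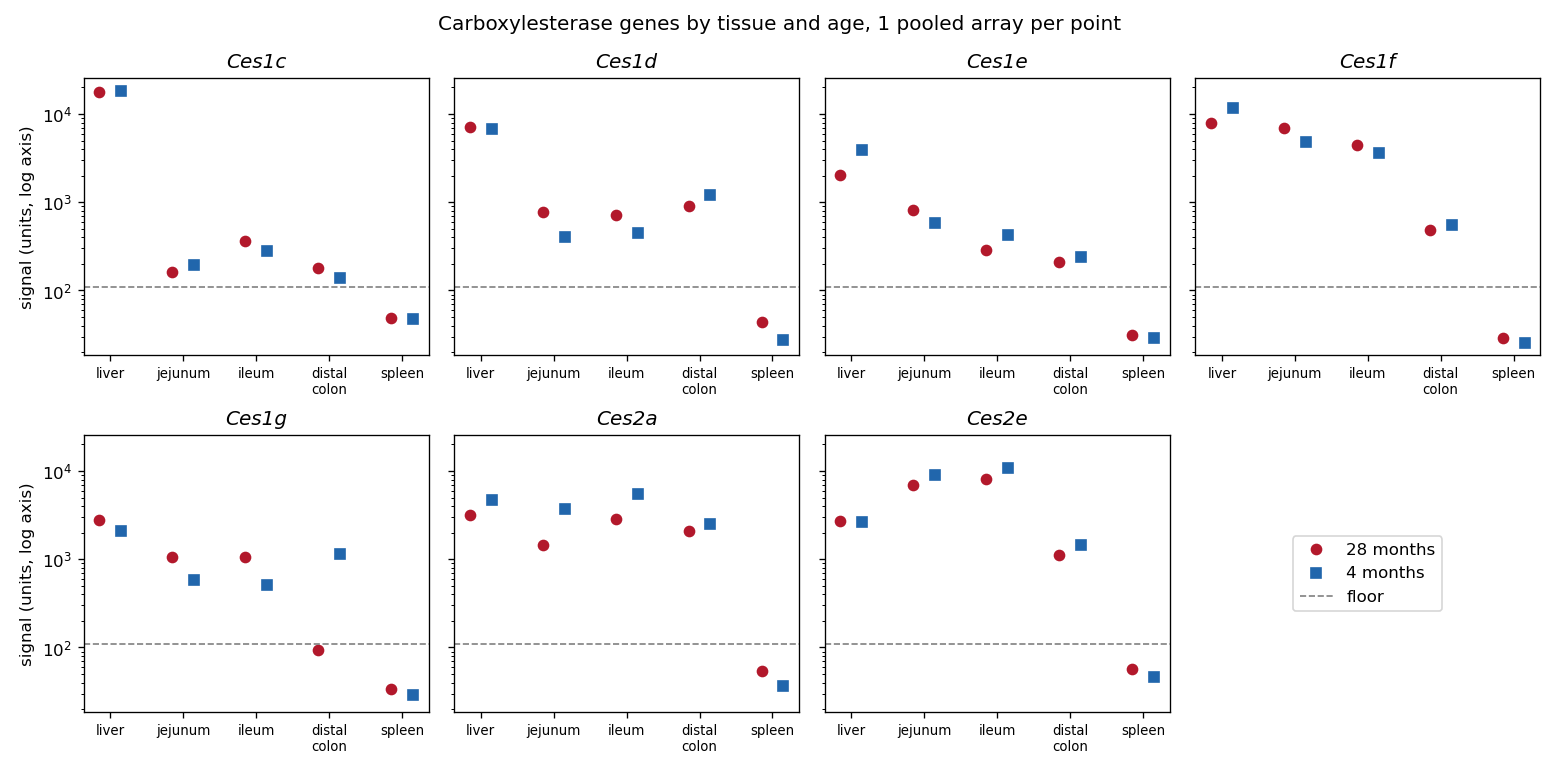
Signal of each measured carboxylesterase gene (units, log axis) in 5 tissues at 28 months (circles) and 4 months (squares), 1 pooled array per point, with the floor of 110.7 units dashed. All points in spleen lie under the floor, Ces1c stands far higher in liver than in gut, Ces2e stands highest in jejunum and ileum, and the distal colon point of Ces1g at 28 months is the only gut or liver point under the floor.

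The first comparison set liver against the gut segments. Of the 5 measured Ces1 genes, Ces1c, Ces1d, Ces1e and Ces1f were higher in liver, Ces2e was lower in liver, and Ces1g and Ces2a did not pass the test. In a limma fit with tissue and age as terms, 4 of the 7 members were higher in liver than the mean of jejunum, ileum and distal colon and 1 was lower, at an adjusted p under 0.05. Of all 18194 genes 23.2% were higher in liver and 28.8% were lower by the same rule. The members' median difference was 2.08 on the log2 scale, and that of all genes was 0.01. The ages stood in for replicates in this fit, with 4 residual degrees of freedom. The spread it used is what remains between these pools after the tissue and age terms. Age differences that vary between tissues are thus part of that spread, and the p-values measure nothing beyond it.

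Ces1c, which mice secrete into plasma as a circulating esterase, was the most liver-bound of the 7. It gave 17680 units in liver at 28 months and 18243 units at 4 months. In jejunum it gave 161 and 193 units, in ileum 368 and 280 units and in distal colon 179 and 138 units, each at 28 and 4 months. No gut array came near either liver array, and the ages lay close together in liver. The difference of liver over gut was 6.44 ± 0.15 on the log2 scale (SE; adjusted p = 7.73e-09, limma), or 86.7-fold, and it was 6.33 within 28 months and 6.54 within 4 months.

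Ces1d, also called triacylglycerol hydrolase, releases fat stored in liver cells for packing into lipoprotein. Its brightest probe set gave 7083 units in liver at 28 months and 6716 units at 4 months, against 777 and 406 units in jejunum, 723 and 443 units in ileum and 905 and 1208 units in distal colon. Both liver arrays were above all gut arrays, and distal colon was above jejunum and ileum at both ages. Liver exceeded gut by 3.32 ± 0.24 on the log2 scale (SE; adjusted p = 8.49e-06, limma), or 9.96-fold.

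Ces1e, or egasyn, holds the enzyme beta-glucuronidase inside the endoplasmic reticulum. It gave 2044 units in liver at 28 months and 3868 units at 4 months, with 817 and 585 units in jejunum, 291 and 426 units in ileum and 211 and 240 units in distal colon. The liver arrays were highest and the tissues did not overlap in the order liver, jejunum, ileum, distal colon. The difference of liver over gut was 2.89 ± 0.24 on the log2 scale (SE; adjusted p = 1.9e-05, limma), a 7.40-fold difference.

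Ces1f, a second triglyceride hydrolase of mouse liver, was high in liver and in the small intestine. It gave 7937 units in liver at 28 months and 11654 units at 4 months, 6883 and 4803 units in jejunum, 4427 and 3616 units in ileum, and 484 and 546 units in distal colon. Liver, jejunum, ileum and distal colon followed in that order without overlap between neighbours. The liver excess over the gut mean, 2.08 ± 0.19 on the log2 scale (SE; adjusted p = 3.55e-05, limma), was 0.74 against jejunum alone and 4.23 against distal colon alone. Its probe set is of a type that can read several transcripts, so near copies of the gene may add to the signal.

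Ces1g, whose loss in mice alters liver fat and blood lipids, gave 2795 units in liver at 28 months and 2106 units at 4 months. It gave 1062 and 582 units in jejunum, 1065 and 508 units in ileum, and 93.8 and 1139 units in distal colon. Both liver arrays were above all gut arrays, while jejunum, ileum and distal colon overlapped. The liver excess of 2.08 ± 0.79 on the log2 scale did not pass the test (SE; adjusted p = 0.0566, limma), with a 95% interval from 0.26 to 3.90. Without distal colon it was 1.67 with adjusted p = 0.000241, and without ileum 2.26 with adjusted p = 0.0458.

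Ces2a gave 3170 units in liver at 28 months and 4726 units at 4 months, 1467 and 3704 units in jejunum, 2886 and 5463 units in ileum, and 2089 and 2495 units in distal colon. Liver overlapped ileum and jejunum, and jejunum overlapped distal colon. The difference of liver over gut was 0.49 ± 0.31 on the log2 scale (SE; adjusted p = 0.221, limma), and its 95% interval ran from -0.22 to 1.19. The interval holds both a liver excess of up to 1.19 and no difference.

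Ces2e gave 2691 units in liver at 28 months and 2646 units at 4 months, against 6912 and 9083 units in jejunum, 8189 and 10846 units in ileum, and 1127 and 1441 units in distal colon. Both small intestinal segments lay above liver and distal colon lay below it, with no overlap. The mean difference of liver over gut was -0.77 ± 0.16 on the log2 scale (SE; adjusted p = 0.00328, limma), made of -1.57 against jejunum, -1.82 against ileum and 1.07 against distal colon. That call rests on averaging these segments: without jejunum it was -0.38 with adjusted p = 0.109, and without ileum -0.25 with adjusted p = 0.232. Without distal colon it was -1.70 with adjusted p = 0.000148.

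In spleen none of the 7 genes exceeded the floor at either age, with signals from 25.5 to 57.6 units. Signals of these 7 genes above the floor were thus found only in liver and gut, and Ces1g in distal colon at 28 months was under it. Of 6 further Ces genes with a probe set of their own, 3 exceeded the floor in spleen at either age. Ces4a did so only barely, with 111 units in spleen at 28 months and 91.2 units at 4 months. Ces2g gave 802 units there at 28 months and 489 units at 4 months. The brightest probe set of Ces5a gave 700 and 479 units and is of a type that can read several transcripts. The other Ces5a probe sets stayed under the floor, at 60 and 48 units and at 75 and 67 units.

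The next comparison set the small intestine against distal colon in the same fit. Of the 7 members, 4 were higher in jejunum and ileum and 1 was lower, against 12.5% of all genes higher and 20.1% lower. Ces1f exceeded distal colon 9.33-fold (log2 difference 3.22 ± 0.20, SE; adjusted p = 2.55e-05, limma) and Ces2e 6.78-fold (2.76 ± 0.17, SE; adjusted p = 2.04e-05). The differences of Ces1e (1.13; adjusted p = 0.0112) and Ces1c (0.60; adjusted p = 0.0195) were smaller, and Ces1d was lower in the small intestine (-0.89; adjusted p = 0.0302). When signals under the floor were raised to it before the fit, the differences of Ces1c, Ces1d and Ces1e were the same but did not pass, with adjusted p = 0.0708, 0.128 and 0.0682. Ces1g (1.22, 95% interval -0.71 to 3.15) and Ces2a (0.41, 95% interval -0.33 to 1.16) did not pass.

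**Figure D2:**
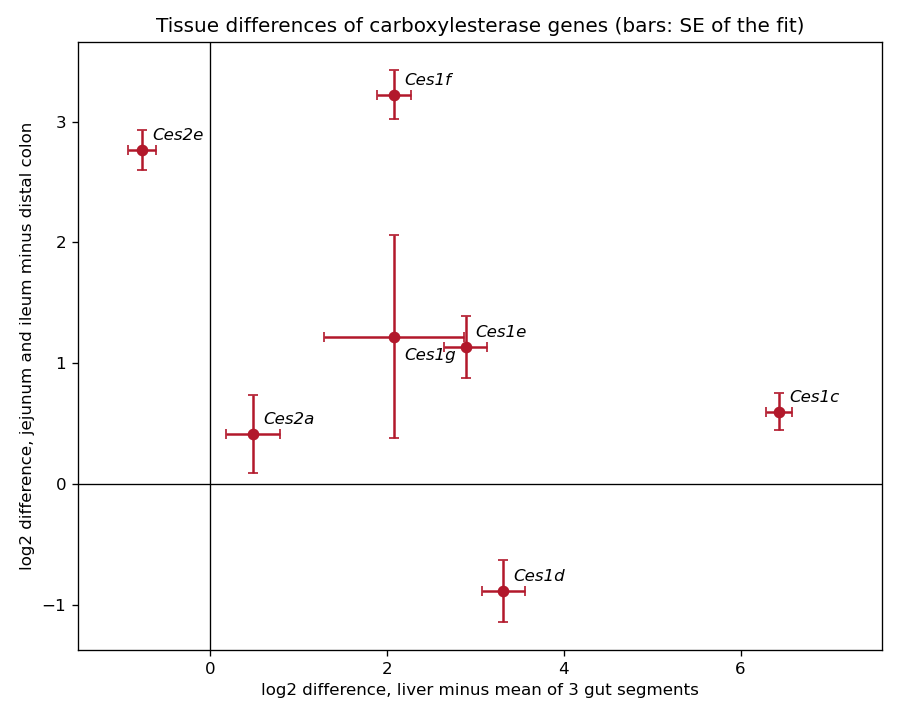
Log2 difference of liver minus the mean of 3 gut segments (horizontal) and of jejunum and ileum minus distal colon (vertical) for the 7 measured genes, with bars for the SE of the limma fit over 10 arrays. Ces1c lies far to the right at 6.44, Ces2e is the only gene left of 0 and Ces1d the only one under 0, and Ces1g has the widest bars.

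Signals of the members across the 10 arrays were described by Pearson correlations of log2 signals raised to the floor. These correlations share the same tissues and so mainly show tissue pattern, with every member at the floor in spleen. The closest pair was Ces2a and Ces2e at r = 0.89, and the least alike were Ces1c and Ces2e at r = 0.25. Among 13601 other genes above the floor on at least 2 arrays, the nearest to Ces1c was Gamt, which makes creatine (r = 0.997), and the nearest to Ces1d was Thtpa (r = 0.996). The nearest genes to Ces1f were Otc and Cps1, enzymes of the urea cycle that liver and small intestine share (r = 0.99 each). The nearest to Ces2e were Hadha, an enzyme of fatty acid oxidation, Rab17, and Fabp2, the intestinal fatty acid binding protein (r = 0.99 each). Nmnat1 and Acot1 were nearest to Ces1e (r = 0.99 each) and Usp47 to Ces2a (r = 0.99), while Ces1g had no such close neighbour, its nearest being Slc35d1 (r = 0.95).

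The remaining comparisons set 28 months against 4 months within a tissue. Ces1g stood out with a fall in distal colon and a rise in ileum, and Ces2a fell in jejunum. No other member reached 2-fold in any tissue by its brightest probe set. A dimmer Ces1d probe set passed 2-fold, at 1.04 in jejunum and 1.02 in ileum on the log2 scale. It and the brightest Ces1d probe set are of types that can read several transcripts. Without such probe sets Ces1d was at 0.93 in jejunum and 0.76 in ileum, short of 2-fold. With 1 array per age these ratios have no replicate check and no p-value. The only internal error is the spread between probe sets of the same gene, whose median SD of log2 ratios was 0.11 in jejunum, 0.12 in liver, 0.14 in ileum and 0.14 in distal colon.

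**Figure D3:**
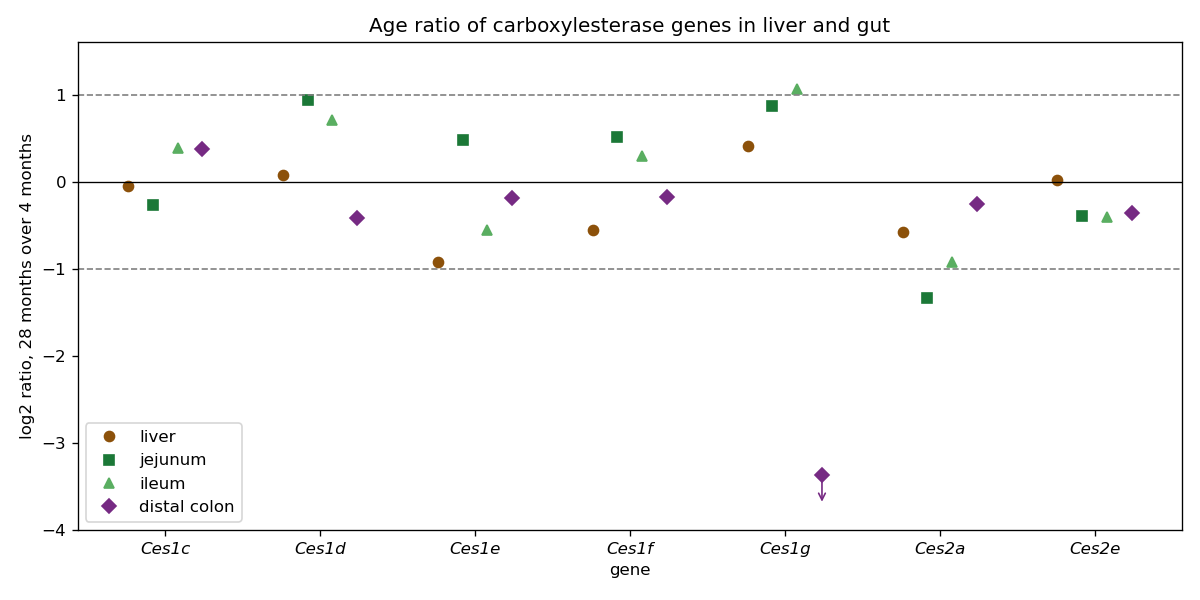
Log2 ratio of 28 over 4 months for each measured gene in liver, jejunum, ileum and distal colon, 1 pooled array per age, with dashed lines at 2-fold. The arrow marks a bound for Ces1g in distal colon, where the array of 28 months was under the floor; jejunum and ileum lie above 0 for Ces1d, Ces1f and Ces1g and below 0 for Ces2a and Ces2e.

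In jejunum 0 of 7 members were 2-fold higher at 28 months and 1 was 2-fold lower, against 0.252% and 1.02% of 12324 measured genes. Ces2a fell 2.52-fold, with 1467 units at 28 months and 3704 units at 4 months. Short of 2-fold, Ces1d was at 0.94, Ces1g at 0.87, Ces1f at 0.52, Ces1e at 0.48, Ces1c at -0.27 and Ces2e at -0.39 on the log2 scale. The ratios of 4 of the 5 Ces1 members were above 0 and those of both Ces2 members below 0, beside 55.9% of all measured genes above 0. Outside the members, Ces2g was at 0.31 and Ces2b at -0.88, so the Ces2 genes did not all lie on 1 side. Ces1d and Ces1g passed 1.5-fold, which 2.01% of measured genes did upward.

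The 3 Ces1d probe sets gave ratios of 0.94, 1.04 and 0.93 in jejunum, which differ by less than the usual spread between probe sets. In jejunum the list of absorptive enterocyte markers, the cells in which intestinal carboxylesterases are made, had 21 of 22 measured genes below 0 and 5 of them 2-fold lower, with a median of -0.57. Its summed signal was 242448 units at 28 months and 329129 units at 4 months. Lct was at -1.81 and the peptidase gene Anpep at -1.53. Of 16 measured proximal small intestine markers 13 were below 0 and 3 were 2-fold lower, among them Slc5a12, at least 23.5-fold, and Dnase1, 9.51-fold. Of 6 measured ileum markers all were below 0 and 2 were 2-fold lower, with Cubn at least 32.8-fold lower. Of the 7 members 4 were above 0 and 3 below 0. The part of these shifts in the Ces2a value and in the other members' ratios was not tested.

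In ileum 1 of 7 members was 2-fold higher at 28 months and 0 were 2-fold lower, against 0.888% and 1.66% of 12504 measured genes. Ces1g rose 2.10-fold, with 1065 units at 28 months and 508 units at 4 months. Ces1d was at 0.71, Ces1c at 0.39, Ces1f at 0.29, Ces2e at -0.41, Ces1e at -0.55 and Ces2a at -0.92, or 1.89-fold lower, on the log2 scale. Of the 5 Ces1 members 4 were above 0 and both Ces2 members were below 0, beside 53.9% of all measured genes above 0, while Ces2b, outside the members, was at 1.00. Ces1c was above 0 in ileum and below 0 in jejunum, and Ces1e the reverse. The 3 Ces1d probe sets were at 0.71, 1.02 and 0.76, which spread more widely than those in jejunum.

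The ileum array of 4 months carried the upper intestinal signature described above, and 15 of 16 proximal small intestine markers were 2-fold lower at 28 months, with a summed signal of 20909 units at 28 months and 174038 units at 4 months. Of 9 ileum markers all were above 0 and 2 were 2-fold higher. Across the segments Ces1e was lower and Ces1c higher in ileum than in jejunum at both ages. All 12 smooth muscle markers were above 0 in ileum, with a median of 0.77. Of 22 absorptive enterocyte markers there, 9 were above 0 and 13 below, with 7 lower and 1 higher by 2-fold. The part of cell makeup or of the sampled position in the ileal ratios was not tested.

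In distal colon 0 of 7 members were 2-fold higher at 28 months and 1 was 2-fold lower, against 0.51% and 0.526% of 12360 measured genes. Ces1g gave 93.8 units at 28 months, under the floor, and 1139 units at 4 months, a fall of at least 10.3-fold. Of the other 6 members, 5 were below 0, from -0.17 for Ces1f to -0.42 for Ces1d, and Ces1c was at 0.38. The fall of Ces1g was thus not shared in size by any other measured member. With the floor at percentile 75 of signals the bound was -1.24 on the log2 scale.

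Some genes of the drug-metabolising list also fell in distal colon: 4 of 17 measured genes controlled by the receptors CAR and PXR or by Nrf2 were 2-fold lower, and 0 were higher, with a list median of 0.08. Cyp2c65 gave 228 units at 28 months and 2351 units at 4 months, a fall of 10.3-fold, and Cyp2c55 gave 1919 and 9286 units, a fall of 4.84-fold. Ugt2b5 fell at least 6.59-fold and Nqo1, a quinone reductase, 2.15-fold. Among 16 measured enterocyte markers 2 fell, Alpi at least 8.78-fold and Fabp2 4.05-fold, and Apob rose 3.19-fold. B and plasma cell markers were 2-fold higher in 7 of 13 cases, with a summed signal of 83388 units at 28 months and 61598 units at 4 months, and all 12 smooth muscle markers were below 0, with a median of -0.49. Of 8 measured distal colon markers 4 were above 0 and 4 below, and 1 was 2-fold lower, Car1 at 3.43-fold. Of 8 measured ileum markers 2 were above 0 and 6 below, with Slc51a at least 5.55-fold lower. The part of cell makeup or of the sampled position in the Ces1g value was not tested.

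In liver 0 of 7 members were 2-fold higher at 28 months and 0 were 2-fold lower, against 1.29% and 0.167% of 12001 measured genes. The lowest ratio was that of Ces1e, -0.92 or 1.89-fold lower, with 2044 units at 28 months and 3868 units at 4 months. Ces2a was at -0.58, Ces1f at -0.55, Ces1c at -0.05, Ces2e at 0.02, Ces1d at 0.08 and Ces1g at 0.41. The members' median of -0.05 lay beside a median of -0.01 for all measured genes. The liver value of Ces1d depended on the probe set, at 0.08, 0.20 and -0.12.

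Of hepatocyte markers in liver 0 of 21 passed 2-fold, with a median of -0.01 and summed signals of 556860 units at 28 months and 557550 units at 4 months. Acute phase genes, which the liver makes in inflammation, were 2-fold higher in 7 of 21 cases with a median of 0.78, and macrophage and Kupffer cell markers in 4 of 12 with a median of 0.90. Of 25 measured transcription factors of liver or gut 1 passed 2-fold, Onecut1, a hepatocyte factor, with 1062 units at 28 months and 2725 units at 4 months. Foxa1 gave 1011 and 1964 units, 1.94-fold lower. The part of these changes in the Ces1e, Ces1f and Ces2a ratios was not tested.

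Over all 5 tissues, with tissue as a block in the limma fit, 0 of 7 members and 0 of 18194 genes differed with age at an adjusted p under 0.05, a background of 0%. At an unadjusted p under 0.05 the fit called 0 of 7 members and 1221 of all genes. The estimates nearest to a difference were -0.51 for Ces2a, with a 95% interval from -1.05 to 0.04, and 0.40 for Ces1d, with one from -0.04 to 0.83. The fit used signals without the floor, so the members' spleen signals, all under it, entered these estimates. With floored signals Ces2a was at -0.62 and Ces1d at 0.26. Without spleen, whose array of 4 months held the acinar signal, 0 of 7 members passed, with Ces2a at -0.77 (adjusted p = 0.511) and Ces1d at 0.33 (adjusted p = 0.674). Whether the age ratio of a gene differed between tissues could not be tested, since each tissue had 1 array per age.

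Other genes near the family were read by lists. Of 11 further Ces genes 6 had a probe set of their own. Ces1h and Ces2f stayed under the floor on all 10 arrays. Ces2b gave 526 units at 28 months and 264 units at 4 months in ileum, 1.99-fold higher, and 288 and 530 units in jejunum, 1.84-fold lower. Ces2g fell 4.48-fold in ileum, with 196 units at 28 months and 880 units at 4 months, and its ratios were above 0 in the other 4 tissues. Of these only Ces2g in ileum passed 2-fold.

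Among lipases and neutral lipid enzymes 0 of 21 measured genes passed 2-fold in liver, and 0 of 23 in jejunum. In ileum 4 of 21 were 2-fold lower and 0 higher, with a median of -0.31. Aadac, a microsomal esterase related in function to the carboxylesterases, gave 667 units at 28 months and 2809 units at 4 months there, 4.21-fold lower. Dgat2, which makes triglyceride, was 2.88-fold lower, and Mttp, which loads lipid onto apolipoprotein B, 2.18-fold lower. In distal colon 1 of 17 was lower, the lipoprotein lipase gene Lpl at 2.54-fold.

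Among other hydrolases and oxidising enzymes of foreign compounds, 0 of 17 measured genes in liver and 0 of 14 in jejunum passed 2-fold. In ileum Ephx2, an epoxide hydrolase, gave 2707 units at 28 months and 8591 units at 4 months, 3.17-fold lower, and the cholinesterase gene Bche was 2.68-fold lower. Of the regulators, Nr1i3, which encodes CAR, gave 114 units at 28 months and 568 units at 4 months in ileum, and Gata4, a factor of the upper small intestine, was at least 4.99-fold lower. CAR, PXR and Nrf2 target genes were 2-fold lower in 6 of 21 cases in ileum and higher in 1. The proximal marker shift of ileum given above moves with these ileal falls, and its part in them was not tested.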

How the data were processed

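The deposited values were log2 signals, 1 per probe set and array, from 2.71 to 14.76 with array medians from 5.42 to 5.52. They were processed by the authors before deposit. The submitters' processing notes name MAS5, an Affymetrix signal and scaling method, and affy, an R package, without the part each had. That the log has base 2 follows from that range.

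Signals were un-logged and multiplied by 1 factor per array (2.42 to 2.57) to give a mean of 500 units after trimming 2% at each end. Of 45101 probe sets 34958 named 1 gene, 932 several and 9211 none, with symbols updated by gene ID. For genes with several probe sets, the brightest on average was used. A gene was measured in a tissue when either age was above 110.7 units, the floor, which 48.9% to 50.9% of probe sets exceeded per array, and was called from 2-fold. Tissue differences were fitted with limma on log2 signals without the floor, with terms for tissue and age, and p-values were adjusted over 18194 genes (Benjamini-Hochberg). Where folds of liver over gut are given, they come from floored signals. On simulated data for 18194 genes the fit found 96.5% of 200 genes changed by 2 on the log2 scale, with 8 false calls among the unchanged genes. The simulated noise was normal and independent between arrays, so it does not give the error rate for pools that share mice.

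The named genes were all members, all Ces genes of the platform, up to 4 genes per list with the largest ratios and the 3 genes most like each member. Promoter motif letters were chosen after the files were seen. The members and lists were chosen with earlier results of these data known. The alternatives were other floors, scalings, probe set rules, filters and fold thresholds, and leaving out tissues. Versions were Python 3.11.15, numpy 2.4.6, pandas 2.3.3, R 4.3.3 and limma 3.58.1. The number of arrays limits the precision.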

Additional observations from a re-analysis of the deposited data

Results flagged for a closer look

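Ces1g moved past 1.5-fold in opposite directions with age: its log2 ratio was 0.867 in jejunum and 1.067 in ileum, but -3.363 in distal colon, where the 28-month array was under the floor. The difference between tissues was not tested, since each tissue had 1 array per age. Its probe set was the only one for the gene, and no second probe set could be compared.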

How the results depend on the processing

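Between liver and gut, each member kept its side of the threshold under the other scalings, the median over probe sets, all probe sets fitted, floored signals and the filter on dim genes. Without probe sets that can read several transcripts Ces1f had no value, and 3 of the 6 members left were higher in liver. Leaving out a segment changed calls: the count of members lower in liver was 0 without jejunum and 0 without ileum. Between small intestine and distal colon, the count of members lower in the small intestine was 0 with the median over probe sets, 0 without probe sets that can read several transcripts (Ces1d at -0.73 in both cases), and 0 with floored signals, where 2 members were higher.

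At 1.5-fold, 1 member was lower with age in liver, 2 were higher in jejunum, and in ileum 2 were higher and 1 was lower. Of all measured genes 0.8% were 1.5-fold lower in liver and 2.01% higher in jejunum. In ileum 5.22% were higher and 4.17% lower. At 3-fold, 0 members were lower in jejunum and 0 were higher in ileum, and the share of all genes was not computed. Across the other settings the counts with age were unchanged. For uncalled age estimates over all tissues, Ces1f turned to -0.068 without jejunum and to -0.011 without ileum, and Ces1g to 0.64 without distal colon; the cause was not tested. The age fit over 5 tissues pairs the ages by tissue. Within a tissue, no paired analysis was possible because each age holds 1 array. Signals near the floor limit the gut values of Ces1c, and with the floor at percentile 75 its 3 gut ratios were 0, as were those of Ces1e in ileum and distal colon.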
